A study of Mus musculus with 2 samples.

Results

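miR-143-3p and miR-145a-5p, the main products of a microRNA (miRNA) cluster that marks contractile smooth muscle, were examined in pulmonary arterial smooth muscle cells with and without NOX1. They are 2 of the 739 features in the deposited intensity table and were chosen by their miRBase mature-sequence accessions, MIMAT0000247 for miR-143-3p and MIMAT0000157 for miR-145a-5p. The samples were 1 array of NOX1 deficient cells and 1 array of wild-type cells, each from 3 male mice of the C57BL/6 background. NOX1 is a catalytic subunit of the NADPH oxidases, enzymes that make superoxide. All cells were at passage 3, had been seeded at 150000 per well of 12-well plates and spent 24 hours in DMEM/F-12 medium that held 10% FBS (fetal bovine serum). The sources used here do not say how the Nox1 gene was disrupted, nor whether material from the 3 mice was combined before or after RNA extraction. With 1 array per genotype there is no replicate spread, so the genotypes were not tested and neither miRNA can be called changed or unchanged.

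miR-143 and miR-145 are cut from hairpins that lie close together and can be made from the same primary transcript. In vascular smooth muscle, serum response factor and its coactivator myocardin drive their transcription, and both miRNAs favour the contractile over the synthetic, dividing state. Known targets include KLF4 and KLF5 for miR-145 and ELK1 for miR-143, transcription factors that oppose the contractile gene programme. Their levels in vessels are known to fall when smooth muscle dedifferentiates after injury or in culture. In the RefSeq gene table of the mouse assembly GRCm38.p6, the hairpin genes Mir143 and Mir145a are neighbours with 0 genes wholly between them, and both lie inside the long noncoding RNA gene Carmn, whose synonyms include Mir143hg.

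Both miRNAs were among the brightest features on both arrays. miR-143-3p read 2289 units in NOX1 deficient cells and 2079 units in wild-type cells. It was the feature of rank 6 on each array, below a feature of 2660 units and above one of 1878 units in NOX1 deficient cells, and between 3003 and 1784 units in wild-type cells. The units are arbitrary fluorescence units on a linear scale, and rank 1 is the brightest of the 525 features listed for NOX1 deficient cells or the 546 listed for wild-type cells. miR-145a-5p read 893 units in NOX1 deficient cells and 910 units in wild-type cells, which was rank 15 on each array. Its neighbours in rank were close, at 935 and 834 units in NOX1 deficient cells and at 964 and 860 units in wild-type cells. The features that lay directly above and below it were not the same on both arrays, while its own rank was. Of the 15 brightest features by mean log2 intensity, 8 kept one rank on both arrays, these 2 among them.

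Set against the rest of the array, miR-143-3p was 669 times the median listed intensity in NOX1 deficient cells and 628 times in wild-type cells. For miR-145a-5p the multiples were 261 in NOX1 deficient cells and 275 in wild-type cells. Of the listed features, 98.9% were dimmer than miR-143-3p on either array, and 97.1% in NOX1 deficient cells and 97.3% in wild-type cells were dimmer than miR-145a-5p. miR-143-3p held 2.04% of the summed intensity in NOX1 deficient cells and 1.81% in wild-type cells. The share of miR-145a-5p was 0.796% in NOX1 deficient cells and 0.793% in wild-type cells. Probes differ in affinity and labelling, so neither ranks nor shares of intensity order the miRNAs by copies per cell. The 2 miRNAs were the only smooth muscle markers in the marker lists drawn up for this comparison, so that list adds nothing to the intensities above. The markers drawn up for endothelial, blood, epithelial, striated muscle and mesenchymal cells were not evaluated, since the sources used here give no names to the other 737 features.

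**Figure D1:**
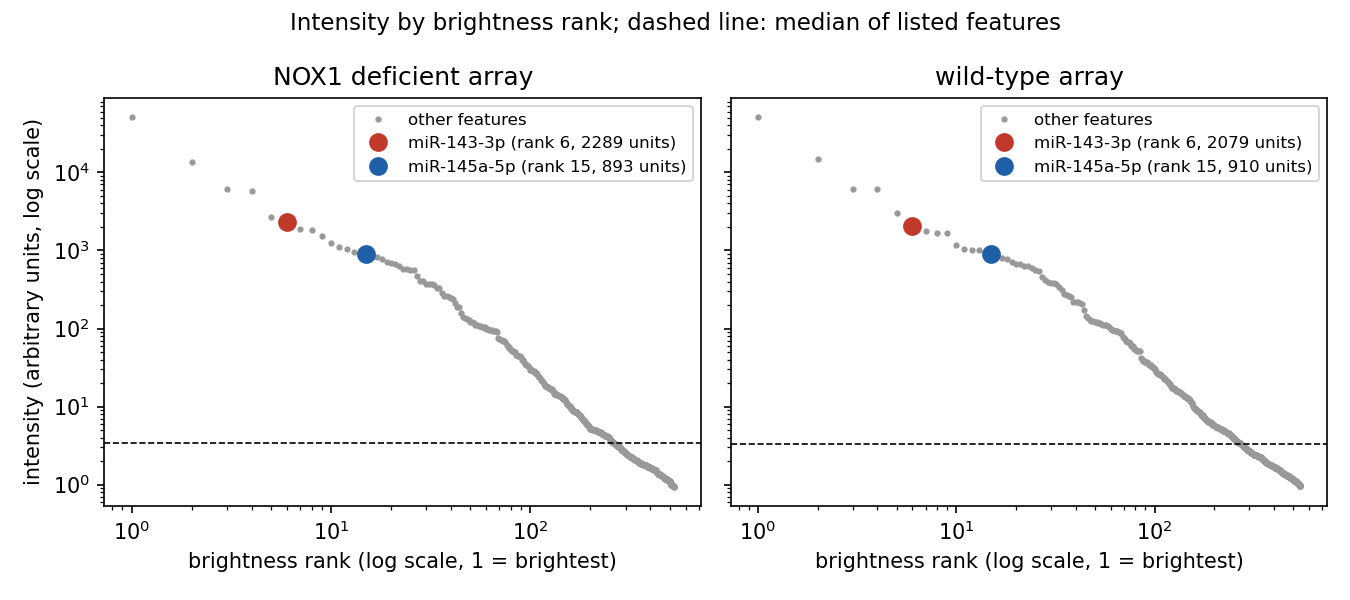
Intensity in arbitrary units (log scale) against brightness rank (log scale, 1 is the brightest) for every feature listed on the NOX1 deficient array (left) and the wild-type array (right), with 1 point per feature and a dashed line at the median listed intensity. miR-143-3p stands at rank 6 and miR-145a-5p at rank 15 on both arrays, at least 261 times the median.

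The comparison of genotypes asked whether loss of NOX1 goes with another level of these contractile miRNAs. miR-143-3p was 1.10-fold as bright in NOX1 deficient as in wild-type cells, a log2 difference of 0.14. miR-145a-5p was 0.981-fold as bright, a log2 difference of -0.03. Differences here are NOX1 deficient minus wild-type, taken from the intensities as deposited. Neither miRNA was 25% brighter on one array than on the other, so 0 of 2 passed a threshold that 16.5% of the 236 features at or above the median brightness passed. In 7.63% of those 236 features the NOX1 deficient array was the brighter by that margin, and in 8.9% the wild-type array was. At 1.5-fold the share of the 236 features was 2.97%, and at 2-fold it was 0%. Over all 236 the median difference was 0.01. These 236 features extend to far dimmer ones than the 2 miRNAs, so the shares past 25% at similar brightness are given below.

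The spread of the array depends on brightness, so each miRNA was also set beside features of similar intensity. The comparison took up to 25 features next brighter and 25 next dimmer by mean log2 intensity, with both miRNAs left out. For miR-143-3p only 5 brighter features existed, which left 30 features with mean intensities from 377 to 51463 units. Their log2 differences had a median of -0.02 (SD across features 0.14) and ran from -0.30 to 0.39. Of the 30 features, 1 (3.33%) was at least 25% brighter on one array than on the other. miR-143-3p, at 0.14, lay above 28 of the 30 (93.3%). It was 0.16 above their median, or 1.09 SD above their mean, and 9 of the 30 differed between the arrays by at least as much in one direction or the other. Thus miR-143-3p lay towards the upper end of its brightness class, by about the spread of features in that class. The class is a wide one, since only 5 of the 30 were within 2-fold of its mean intensity. It lay above all 5 of these.

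For miR-145a-5p the comparison held 38 features, 13 brighter and 25 dimmer, from 231 to 51463 units. Their log2 differences had a median of 0.01 (SD across features 0.16) and ran from -0.30 to 0.39. Of the 38 features, 3 (7.89%) were at least 25% brighter on one array than on the other. miR-145a-5p, at -0.03, lay above 15 of the 38 (39.5%) and was 0.23 SD below their mean on the log2 scale. Of the 38, 33 differed between the arrays by at least as much. This miRNA was therefore near the middle of its class, and its 2 intensities were closer to each other than those of most features as bright. All 30 features compared with miR-143-3p were also in the set for miR-145a-5p, so the 2 positions are not independent. The SD across features mixes the error of the arrays with any true differences of the other features and is not the error of either value.

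**Figure D2:**
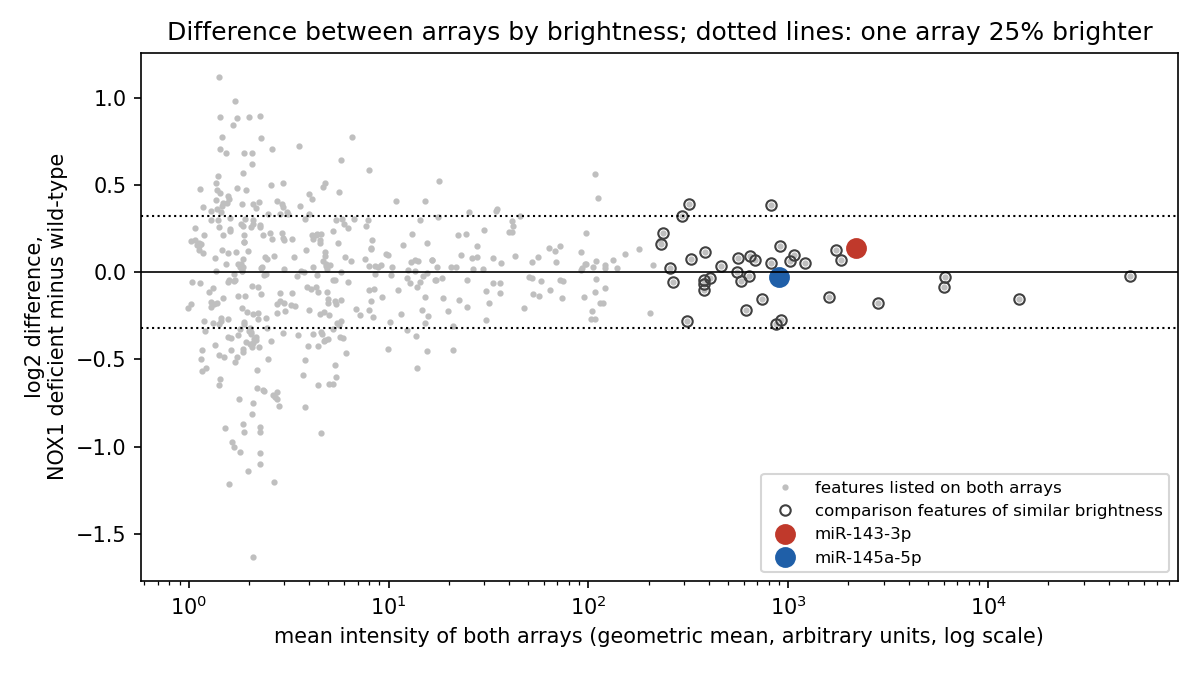
Log2 difference, NOX1 deficient minus wild-type, against the geometric mean intensity of both arrays (arbitrary units, log scale) for the 472 features listed on both, with open circles for the features of similar brightness and dotted lines where one array is 25% brighter than the other. miR-143-3p (0.14) and miR-145a-5p (-0.03) both lie between the dotted lines, at the bright end where the points are least scattered.

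The features of similar brightness were divided into 2 kinds. Those with accession numbers below 1000 were mostly higher in NOX1 deficient cells, and those numbered from 1000 up were mostly lower. Both miRNAs have numbers below 1000. This split was chosen after the intensities had been seen. The kinds also differed in brightness: mean intensities reached 1732 units below 1000 and 51463 units from 1000 up. Among the 13 features of the first kind compared with miR-143-3p, 12 were above 0 and their median difference was 0.07. miR-143-3p was above 11 of these 13, and above all 17 of the second kind, whose median was -0.08. Among the 19 features of the first kind compared with miR-145a-5p, 17 were above 0, with a median of 0.08. miR-145a-5p was above only 2 of these 19 (10.5%), while it was above 13 of the 19 of the second kind (68.4%), whose median was -0.08. Under this split miR-145a-5p was low among the first kind and above most of the second, and miR-143-3p was in the upper part of both. All 13 features of the first kind compared with miR-143-3p were dimmer than it (mean intensity 2182 units). As the split was chosen after the intensities had been seen, these places describe the split and no conclusion is drawn from them. The part of this split in the differences between genotypes was not tested.

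The 2 miRNAs can also be compared with each other, which removes any single scaling factor per array. miR-143-3p was 2.56 times as bright as miR-145a-5p in NOX1 deficient cells and 2.29 times in wild-type cells. The difference of miR-145a-5p was thus 0.17 below that of miR-143-3p on the log2 scale (-0.17), a change of their ratio by 1.12-fold. Of the 703 pairs that the 38 features of similar brightness form, 326 (46.4%) had differences at least that far apart, and the median gap was 0.15. The gap between the 2 miRNAs of the cluster was thus close to the median gap between features of similar brightness.

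The features whose intensities on both arrays were nearest to those of each miRNA were found by the Euclidean distance between log2 intensities, over the 2 arrays. For miR-143-3p the nearest was MIMAT0003484, with 1878 units in NOX1 deficient cells and 1784 units in wild-type cells (log2 distance 0.36, log2 difference 0.07). For miR-145a-5p the nearest was MIMAT0000523, with 954 units in NOX1 deficient cells and 860 units in wild-type cells (log2 distance 0.13, log2 difference 0.15). Of the 6 features in all, 3 nearest to each miRNA, 4 were higher and 2 were lower in NOX1 deficient cells, with 1 lower feature beside each miRNA. MIMAT0003469, near miR-143-3p, read 2660 units in NOX1 deficient cells and 3003 units in wild-type cells (log2 difference -0.18). MIMAT0011222, near miR-145a-5p, read 834 units in NOX1 deficient cells and 1007 units in wild-type cells (log2 difference -0.27). With only 2 arrays, likeness means similar brightness and nothing more.

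The direction of miR-145a-5p depended on how the arrays were scaled. Dividing each array by its median over the 472 features listed on both gave 0.24 for miR-143-3p and 0.07 for miR-145a-5p. That scaling adds 0.10 to every difference, although the differences of the 472 features already had a median of 0.004. Dividing by the summed intensity gave 0.17 for miR-143-3p and 0.01 for miR-145a-5p. Subtracting a loess curve of difference on brightness gave 0.15 for miR-143-3p and -0.03 for miR-145a-5p. Quantile normalization gave 0 for both, because that method assigns values by rank, and the rank of each was equal on the 2 arrays. miR-143-3p was higher in NOX1 deficient cells under median scaling, total scaling and the loess curve, while miR-145a-5p changed sign under median and total scaling. Median and total scaling add one constant to every difference and so cannot move a feature among its neighbours. After the loess curve, which can, miR-143-3p lay above 29 of its 30 comparison features and miR-145a-5p above 15 of its 38. Quantile normalization can as well. Under it miR-143-3p lay above 8 of its 30, below 9 and level with the rest. Likewise, miR-145a-5p lay above 10 of its 38, below 12 and level with the rest.

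**Figure D3:**
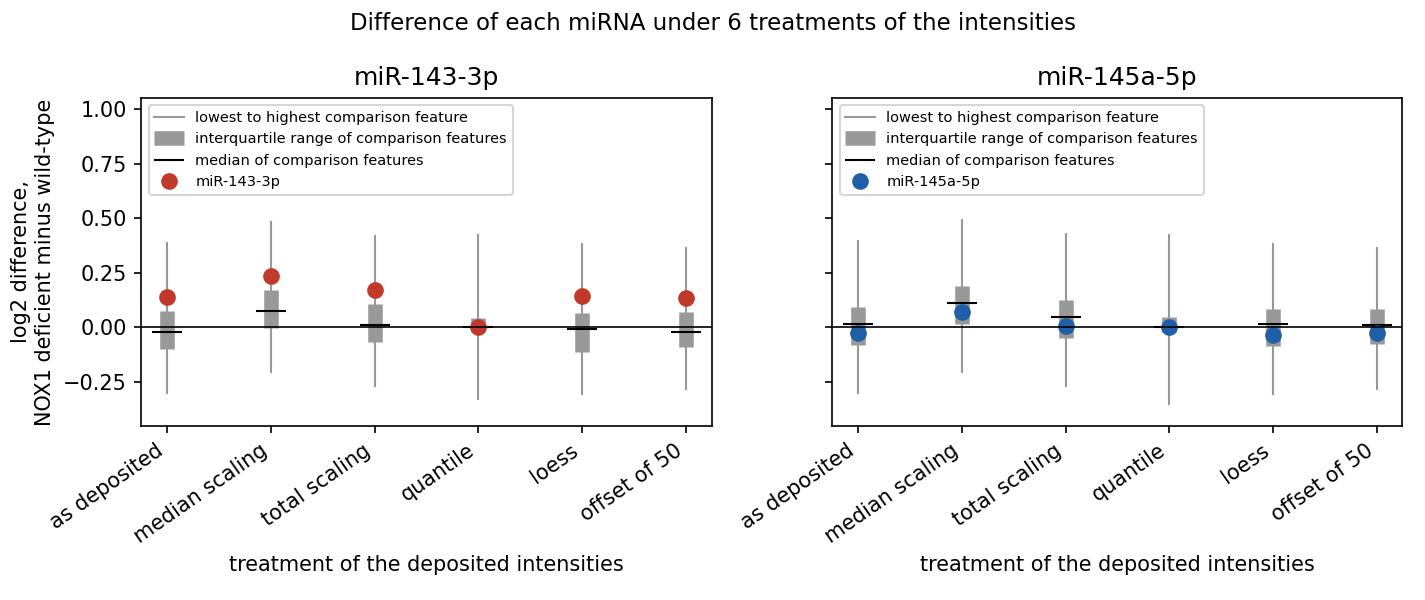
Log2 difference, NOX1 deficient minus wild-type, of miR-143-3p (left) and miR-145a-5p (right) under 6 treatments of the intensities (horizontal axis), with the lowest to highest value, interquartile range and median of the features of similar brightness. miR-143-3p lies above the interquartile range in all treatments but quantile normalization, where it is 0, and miR-145a-5p lies inside it in all.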

How the data were processed

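RNA extracted with a miRNeasy mini kit was labelled for miRCURY LNA arrays with Hy5, a red fluorescent dye, per the labels' protocols. The deposited values are intensities, 1 per feature and array, read as linear from the values themselves. The scanner, background correction, normalization, detection limit and handling of replicate spots are not stated. Null entries numbered 214 for NOX1 deficient cells and 193 for wild-type cells, and summed intensities were 112103 units in NOX1 deficient cells and 114672 units in wild-type cells. The number of arrays limits the precision. Ranks were taken over listed features, and log2 differences over the 472 features listed on both arrays, with no pseudocount. Names of the 2 miRNAs come from the selection rule, as no reference table used here holds miRBase accessions. The fixed rule for named features was these 2, the other arms of their hairpins, the 3 nearest features to each and 2 lists of muscle and proliferative miRNAs. The arms and lists were not evaluated for lack of names, and at most 2 unnamed features per direction are printed. The miRNAs, lists and comparisons were chosen with earlier results of these data known. The scaling and neighbour steps were tested on simulated data. There the planted feature had 25 comparison features on each side. The bright end, where miR-143-3p had 5 brighter features and miR-145a-5p had 13, was not simulated. Python 3.11.15, numpy 2.4.6, pandas 2.3.3, statsmodels 0.14.6 (loess, span 0.4) and matplotlib 3.10.9 were used.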

Additional observations from a re-analysis of the deposited data

How the results depend on the processing

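The share of similarly bright features below miR-143-3p (93.3%) was 93.3% of 15 features when up to 10 were taken per side. It was 85.5% of 55 features with up to 50 per side. When matched on wild-type intensity it was 93.3%, but that match picked the same 30 features and is no separate result. Within 2-fold of its intensity the share was 100% of 5 features. It was 84.6% among neighbours numbered below 1000 and 100% among the 17 others, a split chosen after seeing the data. For miR-145a-5p (39.5%) the shares under the first 4 settings were 40.0% of 20 features, 39.7% of 63, 42.1% of 38 and 31.6% of 19. Under the split they were 10.5% and 68.4%. After quantile normalization, which put both miRNAs at 0, the share was 26.7% for miR-143-3p and 26.3% for miR-145a-5p, with many ties. An offset of 50 units before the logarithm gave log2 differences of 0.14 for miR-143-3p and -0.03 for miR-145a-5p. The gap between the 2 miRNAs (-0.17) was -0.18 with the loess curve, -0.16 with the offset and 0 with quantile normalization, by that method's construction. Of 236 features, 39 were at least 25% brighter on one array; the count was 156 of 472 without the brightness filter, 7 at 1.5-fold and 0 at 2-fold. Without the 10 brightest other features, miR-143-3p held 9.01% of the summed intensity in NOX1 deficient cells and 8.28% in wild-type cells, and miR-145a-5p held 3.51% in NOX1 deficient cells and 3.62% in wild-type cells. Ranks were the same over features listed on both arrays. No paired analysis was possible because there was a single array of each genotype, and no replicate could be left out. Background values were not used here, so signal over background is unknown.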
